A study of Danio rerio with 18 samples.

Results

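Kinases and phosphatases are the enzymes that add and remove phosphate groups on proteins and lipids, and they carry most of the signals that pattern an embryo, from the stress and growth branches of the MAP kinase cascade to the phosphoinositide, cyclic AMP, calcium and insulin pathways. A zebrafish egg starts development with mRNAs of such genes loaded by the mother, and these maternal mRNAs are cleared as the embryo turns on its own genome. 5-methylcytosine (m5C) is a modified base found in mRNA, written in animals mainly by the methyltransferase NSUN2, and maternal mRNA of zebrafish is known to carry it.

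The m5C sites of these genes were taken from transcriptome-wide site lists of RNA bisulfite sequencing, a method in which unmethylated cytosines are converted and read as T while m5C is still read as C. The genes were chosen by symbol, ignoring case: those that begin with mapk, map2k, map3k, map4k, pik3, pi4k, akt, mtor, camk, csnk, prka, prkc, prkd, rps6k, ptpn, ptpr or dusp, or with stk or ppp followed by a digit. This gave 115 genes of the 5129 with any listed site (2.24%), 198 distinct sites of 9047 (2.19%) and 460 of the 21214 site entries over all lists. The embryos were wild-type fish of the AB strain from natural matings, untreated and taken whole, every 2 hours from 0 to 10 hours post fertilisation (hpf) and then at 16, 24 and 48 hpf. Many embryos were pooled for each library, polyadenylated RNA was used, and 2 libraries were made per stage, 18 in all. Each stage list holds the reads of its libraries combined, so no value below carries a replicate error. Intervals of levels and shares are 95% Wilson intervals that cover counting error only, with PCR copies not told apart. Intervals of a median or a median change are 95% order-statistic intervals over sites, which cover spread between sites only. Because embryos were pooled whole, a change in which cells hold a transcript and a change in the methylated share of the transcript in those cells cannot be told apart.

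A site enters a stage list only with at least 20 reads and a methylation level of at least 10%, the level being the share of C among C and T reads. The study's site calling had further filters, such as detection in the replicate libraries, so a site missing from a list may have failed any of these, and its absence does not show an unmethylated base. Among the genes, coverage of the listed sites ran from 20 to 6157 reads, and the median coverage was 118.5, 159.5, 178, 159.5, 73 and 73.5 reads over the stages from 0 to 10 hpf. Positions are given in the Zv9 build used by the lists. Whether a site is exonic, in a UTR or near a given sequence motif was not analysed here, and the lists hold methylated sites rather than expression, so tissue markers could not be checked against them.

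Listed m5C in the signalling genes belonged almost wholly to the first hours of development. At 0, 2 and 4 hpf there were 104, 130 and 132 sites, in 68, 92 and 88 genes. At 6 and 8 hpf there were 56 and 31 sites, in 42 and 22 genes, at 10 hpf 6 sites in as many genes and at 16 hpf 1 site, and the lists of 24 and 48 hpf held none. In all, 112 of the 115 genes and 186 of the 198 sites were listed at 0, 2 or 4 hpf. The matching count over all genes was not made. Sites listed only at 6, 8, 10 or 16 hpf made up 2.53%, 2.53%, 0.505% and 0.505% of the 198. Over all listed sites these shares were also low, at 1.98%, 1.68%, 0.497% and 0.0884%. The fall ran alongside that of the lists as a whole, which held 5889, 2685, 1252 and 428 sites from 4 to 10 hpf and between 14 and 25 from 16 hpf onward. As a share of all listed sites, the genes made up 2.22%, 2.10%, 2.24%, 2.09%, 2.48% and 1.40% over the stages from 0 to 10 hpf. These shares moved little until 8 hpf, and the last rests on 6 sites.

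**Figure D1:**
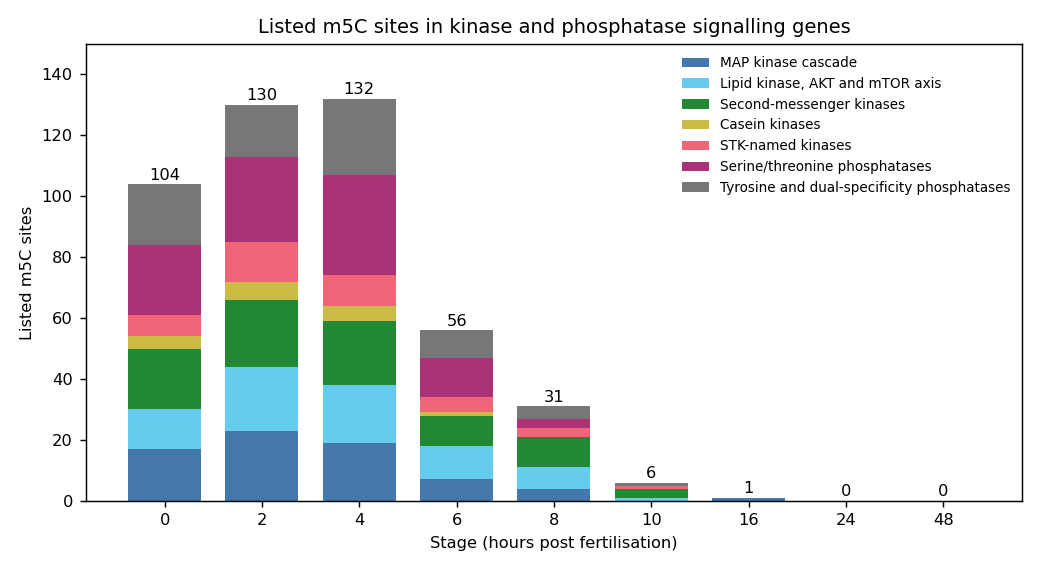
Number of listed m5C sites in kinase and phosphatase signalling genes at each stage in hours post fertilisation, stacked by role group, with the total above each bar. The total rises from 104 to 132 sites between 0 and 4 hpf, is 56 at 6 hpf and 31 at 8 hpf, and is 0 at 24 and 48 hpf.

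The genes were grouped by role from the prefix of their symbols alone, so a group name need not hold for every gene in it. The rps6ka genes were thus placed with the lipid kinase, AKT and mTOR genes, and mapkap1 with the MAP kinase cascade. The largest groups were the serine/threonine phosphatases with their regulatory subunits (41 sites in 25 genes) and the tyrosine and dual-specificity phosphatases (37 sites in 21 genes). The lipid kinase, AKT, mTOR and S6 kinase genes had 35 sites in 19 genes and the group called second-messenger kinases here had 34 sites in 20 genes. That group, drawn by prefix, mostly holds kinases that answer to cyclic AMP, AMP, calcium or diacylglycerol. It also holds atypical protein kinase C genes, PRKDC and the non-kinases camkmt and prkcbp1l. A further gene in it, camkvl, had 2 sites at up to 59.6%. Its symbol was counted as a look-alike, and it was left out in an alternative given below. The MAP kinase cascade had 29 sites in 17 genes, the kinases named STK 15 sites in 7 genes and the casein kinases 7 sites in 6 genes. From 4 to 8 hpf the serine/threonine phosphatases went from 33 to 13 to 3 sites and the second-messenger kinases from 21 to 10 to 10, so that the latter held the most sites of any group at 8 hpf. Of the 10 second-messenger sites at 6 hpf, 4 were listed again at 8 hpf, against 28.1% of all sites. The 10 sites at 8 hpf lay in 6 genes. The casein kinase 1 genes, which act in Wnt and clock signalling, had 5 sites at 4 hpf, 1 at 6 hpf and none after that.

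Most sites were methylated in a minority of molecules. From 0 to 8 hpf the median level was, in order, 20.7% (17.1 to 26.5, order-statistic 95% interval over sites), 20.9% (17.9 to 23.9), 19.9% (16.8 to 23.1), 18.4% (14.8 to 23.5) and 18.3% (13.4 to 32.5). Over all listed sites the medians at these stages were 19.4%, 19.3%, 19.2%, 18.9% and 16.5%, within the interval of the signalling genes at every one of them. Levels of 50% or more were found at 16 (15.4%), 22 (16.9%), 22 (16.7%), 7 (12.5%) and 1 (3.23%) of the sites over the same stages. In the lists as a whole that share was 12.7%, 12.7%, 12.9%, 8.90% and 5.03%. A site that drops below 10% is no longer listed, so these medians do not follow single sites from stage to stage.

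**Figure D2:**
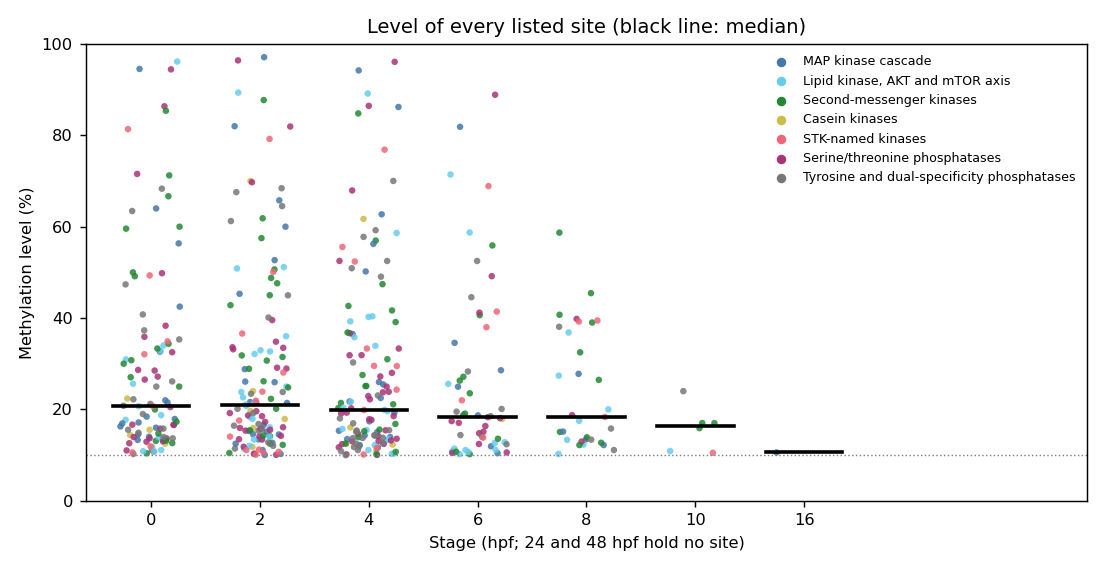
Methylation level in percent of every listed site of the signalling genes by stage, coloured by role group; the black line is the median and the dotted line the 10% minimum of the lists. Sites above 80% are present from 0 to 6 hpf, the highest site at 8 hpf is at 58.7%, and the medians lie between 18.3% and 20.9% from 0 to 8 hpf.

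Most genes had a single site. Of the 115 genes, 70 (60.9%) had 1 site, 26 had 2, 9 had 3, 7 had 4 and 3 had more, and over all genes 58.6% had 1. The genes with the most were ptpn13, a large cytosolic tyrosine phosphatase with PDZ domains (8 sites over 110385 nt of genome on chromosome 21), stk36, a Fused-type kinase of Hedgehog signalling and cilia (7 sites over 13223 nt on chromosome 5), and pi4kab, a phosphatidylinositol 4-kinase (6 sites over 118079 nt on chromosome 8). The genes with 4 sites were camk2g1, map2k4b, map3k5, pik3c2b, pik3r4, ppp1r13bb and ptpn4b. Sites lay on 26 chromosomes and scaffolds, 99 on each strand, and 8 of them (4.04%) were within 10 nt of another listed site of the gene, against 3.39% of all listed sites. The number of lists that held a site also varied, and these lists were not always consecutive. Of the 198 sites, 79 (39.9%) were in 1 list, 39 in 2, 36 in 3, 27 in 4, 15 in 5 and 2 in 6. Over all listed sites 37.8% were in 1 list and 21.4% in 2. The 79 sites of 1 list had a median level of 13.5% and a median coverage of 58 reads. The 17 sites in 5 or 6 lists had a median of 42.7% and 322 reads per entry. A site near the minimum of reads or level is more easily missing from a list. The matching medians over all listed sites were not taken.

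Before the main fall, levels were largely kept. Of the 104 sites at 0 hpf, 71 (68.3%, 58.8 to 76.4) were listed again at 2 hpf, against 71.8% of all sites, and of the 130 at 2 hpf, 100 (76.9%, 69.0 to 83.3) were listed again at 4 hpf, against 73.9%. The median change in level over these shared sites was -2.16 percentage points (-3.71 to 1.21) from 0 to 2 hpf and -0.331 points (-1.06 to 1.79) from 2 to 4 hpf, so both intervals include 0. Each shared site was tested with a two-sided Fisher's exact test on its C and T reads, with Benjamini-Hochberg adjustment over all shared sites of the transcriptome in that comparison and a threshold of 0.05. From 0 to 2 hpf, 2 sites of the signalling genes were called higher (2.82%, against 4.83% of all shared sites) and 7 were called lower (9.86%, 4.86 to 19.0, against 4.86% of all). From 2 to 4 hpf, 5 of the 100 were called higher (interval of the share 2.15% to 11.2%, against 1.92% of all shared sites) and 1 lower (against 4.03%).

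Fisher's test on combined reads knows nothing of differences between libraries. A z test with a beta-binomial variance was therefore run beside it, its correlation of reads (0.00232) set from the sites shared by 2 and 4 hpf. It left 1 site higher and 3 lower from 0 to 2 hpf, where 1.1% and 1.42% of all shared sites were called, and 2 higher and 0 lower from 2 to 4 hpf, where 0.305% and 0.589% were called. The correlation was set so that the median site shared by 2 and 4 hpf counted as unchanged. Few calls from 2 to 4 hpf therefore follow in part from that setting. Without adjustment, 16 and 17 sites of the genes had a Fisher p under 0.05 in these comparisons. The sites that passed both tests were few. At map3k4, a kinase at the top of the p38 and JNK branches, the level was 42.5% (68 of 160 reads) at 0 hpf and 65.8% (394 of 599) at 2 hpf, and the change passed Fisher's exact test (adjusted p 7.57e-06) and the test with added variance (0.00257). The level was then 56.2% (370 of 658) at 4 hpf, the 1 fall called in that step. It passed Fisher's exact test (adjusted p 0.0163) but not the test with added variance (0.507).

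A pair of sites went down at 2 hpf and back up at 4 hpf. At ppp1r13bb, which codes for ASPP1, a p53 cofactor that binds protein phosphatase 1, the site at position 20883953 of chromosome 20 (plus strand) had levels of 49.8%, 33.6% and 52.5% at 0, 2 and 4 hpf, from 277, 958 and 1392 reads. At ppp2r1a, the scaffold subunit of protein phosphatase 2A (chromosome 5, position 59130569, plus strand, current symbol PPP2R1B), they were 32.5%, 19.2% and 31.9% from 289, 1370 and 1606 reads. In both, the value at 2 hpf lay outside the Wilson intervals of its neighbours, and both changes passed both tests. Adjusted p values under the beta-binomial variance were 0.0289 and 0.00155 for ppp1r13bb and 0.0297 and 0.0284 for ppp2r1a. The fall and the rise at a site use the same reads of 2 hpf, so its 2 calls are not independent. The third site that fell by both tests, in prkcha, a protein kinase C gene, had only 20 reads at 0 hpf (12 C reads, 60.0%) and was at 22.3% of 121 reads at 2 hpf. Other calls of these stages were smaller or thinner and passed Fisher's exact test alone, among them mapk6, which codes for the atypical MAP kinase ERK3 and held the most deeply read site of its group (21.5%, 14.6% and 13.9% from 372, 3515 and 4003 reads).

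The fall came between 4 and 8 hpf. Of the 132 sites at 4 hpf, 48 (36.4%, 28.7 to 44.8) were listed again at 6 hpf, against 40.2% of all sites. At those 48 the median level was 29.5% at 4 hpf and 19.3% at 6 hpf, and the median change was -6.03 points (-13.7 to -2.31), against -4.99 points over all shared sites, with 37 sites lower and 11 higher. Fisher's exact test called 19 sites in 16 genes lower (39.6%, 27.0 to 53.7, against 34.1% of all shared sites) and 1 higher (2.08%, against 1.01%). With the beta-binomial variance 19 were lower and 0 higher, where 24.9% and 0.169% of all shared sites were called, and 21 had an unadjusted Fisher p under 0.05. The share called lower by Fisher's exact test was near that of the transcriptome, which lay inside its interval. With the beta-binomial variance the share had the same interval, and the 24.9% of all shared sites lay below it. That interval counts sites of the same gene separately.

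From 6 to 8 hpf, 18 of 56 sites (32.1%, 21.4 to 45.2) were listed again, against 28.1% of all. Their median level was 41.3% at 6 hpf and 22.6% at 8 hpf, and the median change was -18.7 points (-31.2 to 0.086), against -8.99 points over all shared sites. By Fisher's exact test 9 of the 18, in 8 genes, were lower (interval of the share 29.0% to 71.0%, against 46.2% of all) and 0 were higher (against 3.58%), and 10 had an unadjusted p under 0.05. The beta-binomial variance gave 9 and 0 as well, where 40.6% of all shared sites were lower and 2.52% higher. From 8 to 10 hpf only 5 of 31 sites (16.1%, 7.09 to 32.6, against 26.7% of all) were shared, of which 3 were lower and 0 higher by either test, with 4 at an unadjusted Fisher p under 0.05. In that comparison 28.7% of all shared sites were lower and 3.89% higher by Fisher's exact test, and 22.2% and 1.8% with the added variance. None of the 6 sites at 10 hpf was listed at 16 hpf.

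**Figure D3:**
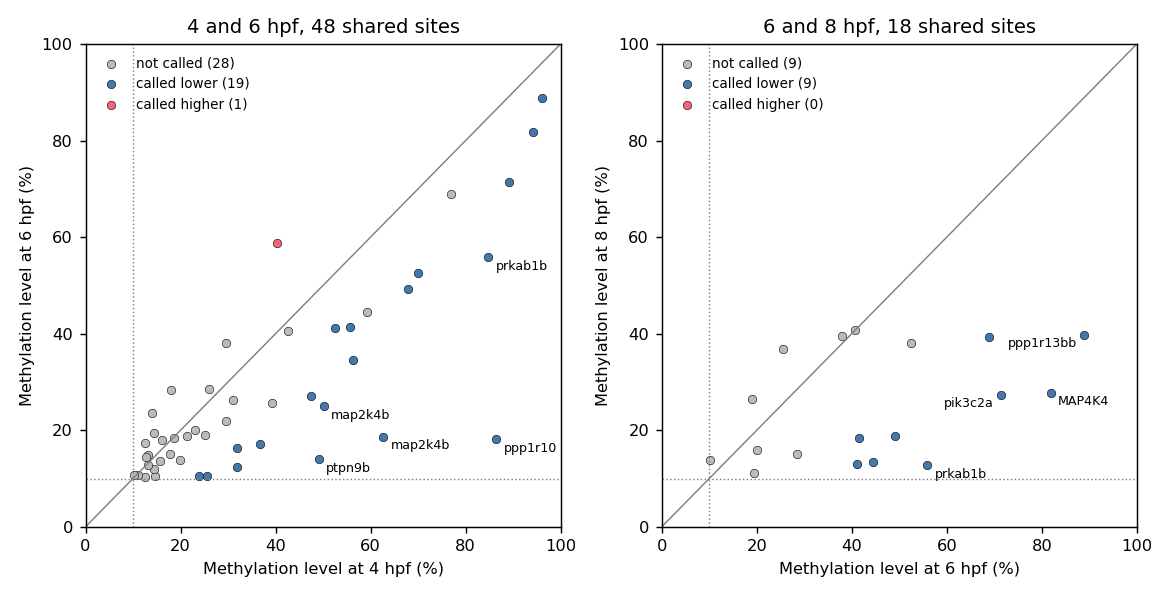
Methylation level of each site of the signalling genes listed at both stages, 4 against 6 hpf on the left and 6 against 8 hpf on the right, in percent; the diagonal marks no change, dotted lines the 10% minimum, and colours the call of Fisher's exact test at an adjusted p under 0.05. Of 48 sites 19 were called lower and 1 higher on the left, and of 18 sites 9 were called lower on the right, most of them sites that started high.

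Most of the sites called lower stood high before. Of the 23 shared sites at 30% or more at 4 hpf, 22 were lower at 6 hpf and 17 were called, with a median change of -17.5 points, while of the 25 under 30%, 15 were lower and 2 were called, with a median change of -0.429 points. Over all shared sites 55.5% of those at 30% or more and 16.7% of those below were called lower. From 6 to 8 hpf 9 of the 12 shared sites at 30% or more were called lower, with a median change of -30.0 points, and none of the 6 below, against 71.3% and 20.2% of all. A site that starts near 10% cannot be seen to fall far, since it leaves the list.

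Depth moved with these results. Coverage rose at only 3 of the 48 sites shared by 4 and 6 hpf, against 296 of 2367 over all shared sites. The median ratio of reads was 0.380, against 0.488 over all shared sites. From 6 to 8 hpf coverage rose at 3 of 18 sites, against 308 of 754, with a median ratio of 0.499 against 0.816. Of the sites at 4 hpf with at least 100 reads, 46 of 85 (54.1%) were listed again at 6 hpf, but of those with 20 to 99 reads only 2 of 47 (4.26%) were, against 54.1% and 12.4% of all sites. Of the sites at or above 20% at 4 hpf, 31 of 65 (47.7%) were listed again, against 56.3% of all sites. Of those below, 17 of 67 (25.4%) were, against 25.4% of all. The part of depth in the loss of sites from the lists was not tested. Reads rose at 3 of the 19 sites called lower from 4 to 6 hpf, against 188 of 807 over the whole lists. From 6 to 8 hpf they rose at 3 of the 9, against 187 of 348.

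In the MAP kinase cascade, 5 of 7 sites shared by 4 and 6 hpf were called lower by Fisher's exact test, against 34.1% of all shared sites. They were in MAP4K4, map2k4b and map3k4. MAP4K4 codes for a Ste20-type kinase at the head of the JNK branch, and its site (chromosome 9, position 451455, plus strand) was close to fully methylated in the early embryo, at 94.5% of 311 reads at 0 hpf, 97.1% of 415 at 2 hpf and 94.2% of 588 at 4 hpf. It was then at 81.9% (78.9 to 84.5) of 750 reads at 6 hpf and 27.8% (22.9 to 33.3) of 277 at 8 hpf, the largest fall among the 18 sites shared by these stages. The C reads numbered 554, 614 and 77 at 4, 6 and 8 hpf and the T reads 34, 136 and 200, counts that are not scaled between stages. Both steps passed Fisher's exact test, with adjusted p 4.89e-11 at the first and 7.79e-57 at the second.

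Further down the JNK branch, below the MAP3K tier, map2k4b (MKK4, which activates JNK and p38) had 3 sites on chromosome 12, all on the plus strand, that fell together. Position 13193 was at 64.0%, 60.0% and 62.7% at 0, 2 and 4 hpf and at 18.7% (20 of 107 reads) at 6 hpf. Position 19199 went from 56.3%, 52.7% and 50.2% to 25.0% (224 of 897), and position 18370 from 22%, 16.6% and 25.5% to 10.4% (70 of 671). Coverage at the first and last of these was higher at 6 than at 4 hpf. The site of map3k4 (chromosome 13, position 36210456, minus strand) was at 56.2% of 658 reads at 4 hpf and 34.6% of 214 at 6 hpf. The gene of JNK1, mapk8a, had 1 site (chromosome 13, position 31373877, minus strand), at 82.0% of 50 reads at 2 hpf, 86.2% of 58 at 4 hpf and 13.4% (8.86 to 19.8) of 149 at 8 hpf. It was missing at 6 hpf, so that change belongs to no comparison of consecutive stages and was not tested.

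Among the lipid kinases, AKT, mTOR and S6 kinases, the median level at 4 hpf was 19.9%, as over all the signalling genes. From 4 to 6 hpf 1 of 5 shared sites was called lower by Fisher's exact test, against 34.1% of all shared sites. That site was in pik3c2a, a class II phosphoinositide 3-kinase that makes lipids for endocytic vesicles (chromosome 18, position 27010893, plus strand). At 0, 2 and 4 hpf it was at 96.2% of 52, 89.4% of 263 and 89.2% of 415 reads. At 6 hpf it was at 71.4% (59.9 to 80.7) of 70 reads, by 8 hpf at 27.4% (18.5 to 38.6) of 73 and by 10 hpf at 10.9% (6.19 to 18.5) of 101. It was 1 of 2 sites in the 6 lists from 0 to 10 hpf, and each of its last 3 steps passed both tests. The only site called higher from 4 to 6 hpf was in pik3r4, the VPS15 subunit of the autophagy lipid kinase (chromosome 16, position 38129708, minus strand), at 50.9% of 116, 40.2% of 164 and 58.7% of 63 reads at 2, 4 and 6 hpf. Its adjusted p was 0.0486 by Fisher's exact test and 0.0812 with the beta-binomial variance.

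Levels of the other genes of this group, which was drawn by prefix, varied. The highest were in rps6ka1, an S6 kinase family gene, at 51.2% of 129 reads at 2 hpf and 58.6% of 116 at 4 hpf, and it was not listed later. The gene mtor, the growth kinase itself, had 1 entry, 11.1% of 45 reads at 6 hpf. The 6 sites of pi4kab lay between 10.9% and 39.3%, and the 4 of pik3c2b between 10.3% and 25.6%. The most deeply read site of the group, in the S6 kinase family gene rps6kal (chromosome 14, position 9078979, plus strand), stayed near the minimum of the lists, at 11.8%, 14.0%, 11.1% and 10.7% from 0 to 6 hpf.

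In the second-messenger kinases, 2 of 10 shared sites were called lower from 4 to 6 hpf and 1 of 4 from 6 to 8 hpf. Over all shared sites these shares were 34.1% and 46.2% by Fisher's exact test. The fall at prkab1b, a regulatory subunit of the energy sensor AMPK (chromosome 8, position 41629002, plus strand), ran over both steps. The level was 85.4% of 383 reads, 87.7% of 521 and 84.8% of 579 at 0, 2 and 4 hpf, then 55.9% (50.4 to 61.2) of 322 at 6 hpf and 12.7% (9.10 to 17.5) of 244 at 8 hpf, and Fisher's exact test called both falls (adjusted p 1.20e-19 and 1.79e-26). The other site called lower at 6 hpf, in prkcbp1l (47.4% of 1337 reads and 27.1% of 571), is no kinase, since its current symbol is ZMYND8, a chromatin reader once named for binding protein kinase C.

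No step was called at the best covered site of camk2g1, a calcium/calmodulin-dependent kinase gene. This site (chromosome 12, position 35924509, plus strand) was, from 0 to 8 hpf in order, at 49.2% (45.2 to 53.2) of 596 reads, 42.8% (39.9 to 45.8) of 1100, 42.7% of 1266, 40.6% (36.8 to 44.6) of 598 and 40.7% (34.1 to 47.8) of 194. The intervals given for 2, 6 and 8 hpf overlap, but that of 0 hpf (45.2 to 53.2) lies wholly above that of 6 hpf (36.8 to 44.6). Fisher's exact test gave the step from 0 to 2 hpf an unadjusted p of 0.0123 and an adjusted p of 0.0986. Only consecutive stages were compared, so the change from 0 to 6 hpf was not tested. A second site in the gene, at position 35962265, was at 57.0% of 79 reads at 4 hpf and 58.7% of 46 at 8 hpf, was missing at 6 hpf, and was at 15.9% (7.93 to 29.4) of 44 at 10 hpf, and Fisher's exact test called the last step (adjusted p 1.84e-04). Of the protein kinase C genes, prkci codes for the atypical kinase of the polarity complex. Its sites picked for their small change, at 37092987 and 37122123 of chromosome 2, were at 15.6% and 10.2% at 4 hpf and 13.6% and 10.7% at 6 hpf. Other low sites moved more without being called, such as that of prkcbb at position 35261230 of chromosome 3, at 13.9% of 158 reads at 4 hpf and 23.5% of 34 at 6 hpf. In prkar1b, a regulatory subunit of protein kinase A, the site was at 15.4%, 12.5%, 10.2%, 13.9% and 17.0% from 2 to 10 hpf, and no step was called.

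**Figure D4:**
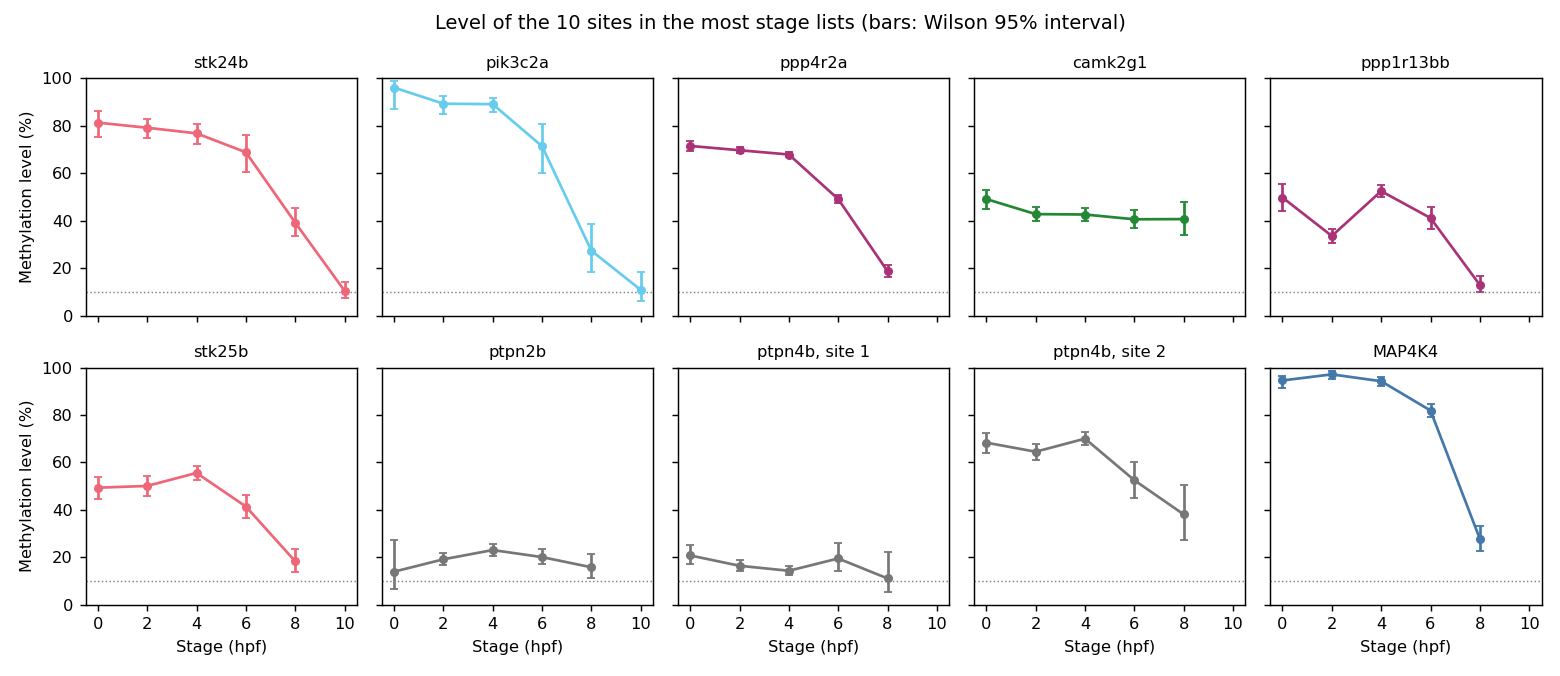
Methylation level in percent by stage in hours post fertilisation for the 10 sites present in the most stage lists, with 95% Wilson intervals of the combined reads; colours mark role groups and the dotted line the 10% minimum. stk24b and pik3c2a fall from above 80% at 0 hpf to 10.5% and 10.9% at 10 hpf, camk2g1 stays between 40.6% and 49.2%, and site 1 of ptpn4b and ptpn2b stay under 25%.

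The kinases named STK included the other site of all 6 lists. In stk24b, a Ste20-type kinase also called MST3 (chromosome 6, position 12452394, plus strand), the level was 81.4% of 204 reads, 79.2% of 380, 76.9% of 363, 68.9% (60.6 to 76.1) of 135, 39.2% (33.5 to 45.3) of 260 and 10.5% (7.58 to 14.4) of 314 at 0, 2, 4, 6, 8 and 10 hpf. The steps from 6 to 8 and from 8 to 10 hpf were called (adjusted p 1.16e-07 and 8.30e-15 by Fisher's exact test), at both of which its coverage rose. Its relative stk25b (chromosome 2, position 22087063, minus strand) was at 49.3%, 50.1%, 55.6%, 41.4% and 18.3% from 0 to 8 hpf, and both of its last steps were called. The gene stk38l, of the NDR kinases related to LATS, had levels of 23.9%, 29.5%, 38.0% and 39.5% from 2 to 8 hpf with only 50 and 38 reads at the last stages, and no step was called. Of the 7 sites of stk36, 1 was still listed at 6 hpf, and its level went from 14.0% of 178 reads at 2 hpf to 29.5% of 200 at 4 hpf, a rise that Fisher's exact test called (adjusted p 0.00932) and the beta-binomial variance did not (0.170).

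Of the serine/threonine phosphatases, the group with the most sites at 4 hpf, 8 of 13 shared sites were called lower from 4 to 6 hpf and 3 of 3 from 6 to 8 hpf, where 34.1% and 46.2% of all shared sites were. The steepest was in ppp1r10, the gene of PNUTS, which holds protein phosphatase 1 in the nucleus (chromosome 19, position 31656691, minus strand). It was at 86.4% of 44, 81.9% of 155 and 86.5% of 251 reads at 0, 2 and 4 hpf and at 18.1% (11.9 to 26.5) of 105 at 6 hpf, so that it fell by 68.4 points (Fisher's exact test, adjusted p 5.15e-34). ppp1r13bb fell later: its site at position 20841005 was at 94.4%, 96.4% and 96.1% at 0, 2 and 4 hpf, still at 88.9% (84.1 to 92.4) of 225 reads at 6 hpf and then at 39.8% (33.6 to 46.4) of 221 at 8 hpf. The second site of that gene, the one that dipped at 2 hpf, went from 52.5% to 41.2% and 13% over the same stages, while a weaker one at position 20877538 was at 15.8%, 16.1%, 18.5% and 18.3% from 0 to 6 hpf.

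The most deeply read site of all the signalling genes was in ppp4r2a, a regulatory subunit of protein phosphatase 4, a complex of DNA repair and splicing (chromosome 23, position 10923496, plus strand). It was at 71.6% of 1705 reads, 69.7% of 5459, 67.9% (66.8 to 69.1) of 6157, 49.2% (47.5 to 50.8) of 3500 and 18.8% (16.5 to 21.3) of 1008 from 0 to 8 hpf. Its other site, at position 10918166, was at 17.7% of 1416 reads at 4 hpf and 15.1% of 582 at 6 hpf and was not called. Its duplicate ppp4r2b had a site at 28.5%, 34.8%, 31.9% and 16.4% from 0 to 6 hpf, of which the first and the last step were called by Fisher's exact test and only the last with the beta-binomial variance. Among the catalytic subunits, ppp1caa of protein phosphatase 1 was at 36.7% of 627 reads at 4 hpf and 17.1% of 340 at 6 hpf, while ppp4cb and ppp6c were listed up to 4 hpf, with levels of 13% to 15.4% and 26.5% to 29.1% at their best covered sites. ppp2r1a was at 12.4% of 1062 reads at 6 hpf.

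Of the tyrosine and dual-specificity phosphatases, 2 of 7 shared sites were called lower from 4 to 6 hpf and 1 of 4 from 6 to 8 hpf. Over all shared sites these shares were 34.1% and 46.2% by Fisher's exact test. In ptpn9b, a phosphatase of secretory vesicles (chromosome 1, position 17852914, plus strand), the level was 40.8%, 45.0% and 49.1% at 0, 2 and 4 hpf and 14.0% (14 of 100 reads) at 6 hpf. In ptpn4b, a phosphatase with FERM and PDZ domains on chromosome 22, sites of the same gene differed. Position 11904091 was at 70.0% of 1044 reads at 4 hpf, 52.5% of 160 at 6 hpf and 38.1% of 63 at 8 hpf, and the first of these steps was called. Positions 11902758 and 11902687 were at 14.3% of 1095 and 12.7% of 1129 reads at 4 hpf and at 19.5% of 164 and 14.4% of 146 at 6 hpf, and neither was called. In ptpn13 the site at position 8794588 fell from 59.2% at 4 hpf to 44.6% of 92 reads and 13.4% of 127 at 6 and 8 hpf, the second step being called, while 4 of its 8 sites never passed 20%. ptpn2b, a phosphatase that acts on JAK kinases, was at 23.1% of 1153 reads at 4 hpf, 20.1% of 582 at 6 hpf and 15.8% of 196 at 8 hpf with no step called. The dual-specificity phosphatases, several of which switch off MAP kinases, had 4 sites in 4 genes, each in 1 list at 0 or 2 hpf, with dusp1 at 37.3% of 134 reads the highest.

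A small number of sites were in the lists from 0 to 8 hpf without a gap. At the 15 such sites of the signalling genes the median level was 63.4%, 61.2%, 59.2%, 44.6% and 18.8% in stage order. At the 597 such sites of the whole transcriptome it was 37.2%, 38.7%, 37.0%, 32.2% and 18.2%. The sites of the signalling genes therefore started higher and ended at about the same level, but 15 sites chosen for being listed throughout do not stand for the 198.

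The lists of 10 and 16 hpf held 7 sites in 7 genes, all at or under 24.0%. At 10 hpf they were those of pik3c2a, stk24b, camk2g1 and prkar1b given above, PRKDC, which codes for the DNA-dependent protein kinase of break repair (47.6% of 21, 39.0% of 41 and 17.0% of 47 reads at 2, 8 and 10 hpf), and ptprsa, a receptor-type phosphatase of axon growth (24.0%, 6 of 25 reads, listed at no other stage). At 16 hpf it was map2k6, an activator of p38, at 10.6% (5 of 47 reads). More broadly, 12 sites were first listed after 4 hpf, in 11 genes. They had 22 to 79 reads, 4 to 11 C reads and levels from 10.2% to 45.5%, with a median of 13%. Sites first listed after 4 hpf were not summarised over the whole lists, so these values have no reference. The genes with no site before 6 hpf were mtor, ptpn11a, which codes for the RAS pathway phosphatase SHP2, and ptprsa. How many genes of the whole lists had no site before 6 hpf was not counted.

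Genes that work with these enzymes but lie outside the symbol rule were followed through a list of 96 symbols of receptors, adaptors, small GTPases, lipid phosphatases, anchors and Hippo and TOR partners. A final a, b or l was allowed, so a symbol could stand for several genes. In all, 65 genes with 148 sites were found. There were 78, 104, 86, 43, 30 and 8 sites from 0 to 10 hpf and none later. From 4 to 6 hpf, 11 of 37 shared sites were called lower and 0 higher by Fisher's exact test, where 34.1% of all shared sites were lower (8 and 0 with the beta-binomial variance, and 15 with an unadjusted p under 0.05), and from 6 to 8 hpf, 5 of 17 were lower and 1 higher by both, where 46.2% of all shared sites were lower by Fisher's exact test. The median changes were -3.42 and -4.95 points. The sites in most lists were in tnikb, a Ste20-type kinase of Wnt signalling, fyna, a SRC-family tyrosine kinase, and pak1, a kinase activated by RAC and CDC42. The tnikb site on chromosome 24 (position 27315507, minus strand) was at 57.7%, 54.6%, 54.7%, 51.1%, 46.1% and 40.3% from 0 to 10 hpf, from 355, 1301, 2010, 1259, 284 and 159 reads, and no step was called. A second tnikb site, at position 27309845, was at 79.2% of 106 reads at 6 hpf and 59.0% of 139 at 8 hpf, a step called by both tests (adjusted p 0.00239 by Fisher's exact test and 0.00857 with the beta-binomial variance). The fyna site was at 12.3%, 11.1%, 12%, 12.5%, 12.3% and 20.0% over the same stages, and that of pak1 at position 6608634 of chromosome 18 was at 18.2%, 18.1%, 17.1%, 14.7%, 18.5% and 13.8%, again with no step called.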

How the data were processed

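Polyadenylated RNA of 18 whole-embryo libraries, 2 per stage at 9 stages, was bisulfite treated and sequenced. The tools named in the submitters' processing notes were bcl2fastq 2.17, cutadapt, Trimmomatic, HISAT2 2.10 and SAMtools, on the Zv9 build. Both libraries of a stage were combined by the authors into 1 site list. The deposited coverage is a count of C and T reads per site, the deposited methylation level is a fraction from 0 to 1, and the deposited p-value of each site was not used. Reads that map to several places could enter, so sites of near-identical duplicates may share reads. C reads were recomputed as level times coverage, and every product was whole within 1e-06.

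The signalling genes, role groups, partner list and tests were chosen with earlier results of these data known. Shared sites (same position and strand) of each of the 8 pairs of consecutive stages were tested with Fisher's exact test (SciPy 1.17.1, Python 3.11.15, pandas 2.3.3, NumPy 2.4.6), two-sided, with Benjamini-Hochberg adjustment over all sites of the comparison. The 2 libraries of a stage could not be told apart, so p-values measure counting error, and the beta-binomial alternative stands in for spread between libraries with a value taken from the 2 and 4 hpf lists. The procedures were tested on simulated data. Of the 115 gene IDs, 96 (83.5%) matched a current symbol.

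Sites and genes were named by rule: up to 10 sites in most lists, the 10 genes with most sites, the largest called changes per comparison with at least 50 reads at both stages, every site at 10 hpf or later, the highest at 4 hpf, the deepest of each role group, those that changed least from 4 to 6 hpf with at least 100 reads, and 3 partner sites. Others named as examples (among them mtor, rps6ka1, prkcbb, prkcha, prkcbp1l, stk38l, ppp1caa, ppp4cb, ppp6c, dusp1 and ptpn11a) were chosen after their values were seen. No sequences are shown, and the values of some genes are not reported here.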

Additional observations from a re-analysis of the deposited data

How the results depend on the processing

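No paired analysis was possible because each stage list combines its libraries, and for the same reason no library was left out. The alternatives for a named site used the same C and T reads of that site, so the direction of its change could not reverse. They bear only on whether it was called. The counts of sites depend on the minimums: with at least 100 reads there were 57, 86, 85, 37, 13, 3 and 0 sites from 0 to 16 hpf, with a level of at least 20% there were 56, 68, 65, 23, 14, 1 and 0, and with at least 50 reads 3 at 10 hpf and 0 at 16 hpf. The mean level weighted by coverage was 29.0%, 32.1%, 33.7% and 31.3% at 0, 2, 4 and 6 hpf, above the medians, and it was higher at 4 than at 0 and 2 hpf where the median was lower. With at least 100 reads the share listed again was 80.7% from 0 to 2 hpf, 84.9% from 2 to 4 hpf and 54.1% from 4 to 6 hpf. Under the beta-binomial variance the calls between 0 and 2 hpf were 1 higher and 3 lower, those between 2 and 4 hpf 2 higher and 0 lower, and 0 sites were higher at 6 than at 4 hpf. For 2 to 4 hpf that variance was fitted on the same comparison, so losing calls there was in part set beforehand. With at least 100 reads 0 were higher from 4 to 6 hpf and 1 lower from 8 to 10 hpf, where fewer sites were tested. Of the named changes, 7 lost their call with the beta-binomial variance: their adjusted p values were 0.224 for map3k1, 0.324 for mapk6, 0.0685 for ppp6r3 and 0.434 for ppp4r2b from 0 to 2 hpf, 0.507 for map3k4 and 0.170 for stk36 from 2 to 4 hpf, and 0.0812 for pik3r4 from 4 to 6 hpf. With Fisher's exact test over sites of at least 50 reads, the same changes had adjusted p values from 1.90e-06 (ppp4r2b) to 0.0437 (pik3r4). The other 197 values of named sites stayed called or uncalled as before, and 145 of the summaries stayed within the limits set. Leaving out camkvl, and also camkmt and prkcbp1l, moved no summary beyond those limits; the last choice, and the share listed again among sites with at least 50 reads, were added after seeing the data. Sites under 50 reads carry wide intervals.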

Other observations

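Genome duplication left zebrafish with many paired copies of human genes, and 12 such pairs had a listed site in both copies (pairs picked after the lists were seen, with no test). The copies had the same number of sites in 2 of the 12 pairs, and their highest levels over all stages were often unlike. For the AMPK subunit, prkab1b reached 87.7% and prkab1a 31.5%. For the kinase MKK4, map2k4b reached 64.0% with 4 sites and map2k4a 11.1% with 1. For the tyrosine phosphatases, ptpn4b reached 70.0% and ptpn4a 30.3%, while ptpn9b reached 49.1% and ptpn9a 23.8%. For the protein phosphatase 4 subunit, ppp4r2a reached 71.6% and ppp4r2b 34.8%. Other pairs were close, such as rps6ka3a and rps6ka3b at 21.3% and 21.1%, and csnk1da and csnk1db at 17.9% and 15.9%. The highest level of a copy also depends on how many of its sites were read and how deeply, and reads shared between copies were not separated.

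Among the partner genes, the largest fall called from 4 to 6 hpf by Fisher's exact test was in ptena, at 85.6% of 209 and 28.4% of 81 reads. The sites called lower also included, as examples, an adaptor and a kinase of receptor signalling. The adaptor gene grb2b was at 46.8% of 363 and 20.6% of 403 reads, and the kinase gene jak2a at 50.2% of 221 and 24.1% of 158. The one partner site that was called higher from 6 to 8 hpf was in pak1, at 11.8% of 228 and 23.1% of 303 reads (adjusted p 0.00251 by Fisher's exact test and 0.0219 with the beta-binomial variance).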
